A study of Mus musculus with 12 samples.

Results

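The MHC class II genes H2-Aa, H2-Ab1, H2-Eb1, H2-DMa, H2-DMb1, Cd74 and Ciita were followed in mouse liver across 2 diets and 2 RNA-Seq library kits. They are the 7 rows of the deposited count table, out of 27022 genes listed, whose Ensembl identifiers belong to these symbols, and all 7 passed the filter on low counts in both kits. RNA came from the livers of 6 female SJL/J mice, of which 3 ate a control diet (50 ppm iron) and 3 an iron-loaded diet (2% carbonyl iron). All mice arrived at 3 weeks of age and ate the control diet until 6 weeks, when 1 cage was changed to the iron-loaded diet, and all were fasted and perfused with saline at collection at 11 weeks. The mice of each diet shared a cage, so diet and cage cannot be told apart. The RNA of each mouse was used for 1 Trad-KAPA library, which samples the whole transcript, and for 1 3’-LEXO library, which reads the end of the transcript next to the poly(A) tail, giving 12 libraries. Counts summed to between 13834682 and 16553616 per Trad-KAPA library and to between 10724672 and 14104236 per 3’-LEXO library.

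MHC class II molecules carry peptides from proteins that a cell has taken up to its surface, where CD4 T cells read them. In liver they are made mainly by Kupffer cells, other macrophages, dendritic cells and B cells, and far less by hepatocytes. H2-Aa and H2-Ab1 encode the alpha and beta chains of I-A, and H2-Eb1 encodes the beta chain of I-E. Cd74, the invariant chain, holds the peptide groove of a new class II molecule closed, and H2-DMa and H2-DMb1 form H2-DM, which exchanges the remaining Cd74 fragment for a peptide. Ciita is the coactivator that is recruited to the promoters of the other members by the RFX and NF-Y proteins bound there. Whole liver was measured, so that more cells of a type and more RNA per cell cannot be told apart.

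On GRCm38, 5 of the 7 genes lie within 197 kb of chromosome 17. H2-DMa (ENSMUSG00000037649) spans chr17:34119541-34139101, H2-DMb1 (ENSMUSG00000079547) spans chr17:34153072-34160230 and H2-Ab1 (ENSMUSG00000073421) spans chr17:34257689-34269419, all on the plus strand. H2-Aa (ENSMUSG00000036594) spans chr17:34282744-34287823 on the minus strand, and H2-Eb1 (ENSMUSG00000060586) spans chr17:34305867-34316674 on the plus strand. Ciita (ENSMUSG00000022504) spans chr16:10480059-10528418 on the plus strand, and Cd74 (ENSMUSG00000024610) lies on another chromosome. All are protein-coding, and their values count reads over exons.

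Promoter sequences in RefSeq (GRCm38.p6), which run from 250 bases before to 50 after the start of the transcript, were matched for 4 of the 7 members, H2-Aa, H2-Eb1, H2-DMa and H2-DMb1. They are shown because the X box, bound by RFX, and the Y box, bound by NF-Y, are the elements that class II promoters are known to share. Capitals mark the letters ATGATGC from the X box region and TGATTGG from the Y box, which were chosen after the sequences had been seen and were searched on both strands. The stretches are chr17:34305756-34305822 for H2-Eb1, chr17:34153078-34153144 for H2-DMb1, chr17:34238796-34238862 for H2-Ob and, on the minus strand, chr17:34287857-34287923 for H2-Aa.
H2-Eb1: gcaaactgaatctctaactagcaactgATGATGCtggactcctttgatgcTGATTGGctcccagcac
H2-DMb1: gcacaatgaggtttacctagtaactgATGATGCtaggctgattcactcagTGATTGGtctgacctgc
H2-Ob: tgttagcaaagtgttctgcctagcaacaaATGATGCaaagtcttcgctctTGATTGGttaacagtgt
H2-Aa: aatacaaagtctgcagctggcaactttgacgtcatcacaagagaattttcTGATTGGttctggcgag

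The first base of TGATTGG stood at -61 from the start of the transcript in H2-Eb1, at -63 in H2-DMb1, at -59 in H2-Ob and at -50 in H2-Aa. ATGATGC preceded it by 16 bases in H2-Eb1, 17 in H2-DMb1 and 14 in H2-Ob, and was not in the H2-Aa window. Of 32851 promoter windows of the same length, 7.82% held TGATTGG and 2.46% held ATGATGC, and 9 windows (0.0274%) held both in this order within 40 bases. Of those 9, 4 belonged to class II genes, H2-Eb1, H2-DMb1, its near copy H2-DMb2 and H2-Ob. Because the letters were chosen after class II promoters had been seen, this count follows from the choice and is no test. H2-Oa and H2-Eb2, also class II genes, held TGATTGG without ATGATGC. Both H2-DMa windows held neither set of letters. A match describes the letters only, and no binding was measured.

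In Trad-KAPA, Cd74 had the highest level of the 7 genes and Ciita the lowest, when CPM, a gene's counts scaled to a library total of 1e6, were divided by the length of the gene's merged exons in kb. Over the 6 mice the level of Cd74 was 81.2 ± 29.4 CPM per kb (mean ± SD, n = 6), that of H2-Eb1 was 21.1 ± 7.78, that of H2-Ab1 was 11.7 ± 4.36 and that of H2-Aa was 9.70 ± 3.43 CPM per kb. The H2-DM chains were far lower, with 1.42 ± 0.606 CPM per kb for H2-DMb1 and 1.14 ± 0.284 for H2-DMa, and Ciita had 0.383 ± 0.171 CPM per kb. The spread over mice was wide, but the order was mostly the same within each mouse. Cd74 was above H2-Eb1, H2-Eb1 above H2-Ab1, H2-Ab1 above H2-Aa and H2-Aa above H2-DMb1 in 6 of 6 mice, and H2-DMa was above Ciita in 6 of 6. H2-DMb1 was above H2-DMa in 5 of 6 mice, with ratios from 0.706 to 1.65, so that these neighbours did not differ beyond their spread. H2-Ab1 exceeded H2-Aa by a ratio of only 1.03 to 1.37. Length decided part of this order. With the length of the longest transcript, the level of H2-Ab1 was 24.7 CPM per kb, next to 24.6 for H2-Eb1, and that of H2-DMa was 1.97, above 1.70 for H2-DMb1.

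The 3’-LEXO libraries placed the same genes in another order. Reads there come from the transcript end, so the shares of reads are given without division by length. H2-Aa had 49.7 ± 15.3 CPM (mean ± SD, n = 6), H2-Eb1 38.6 ± 11.7, H2-Ab1 15.8 ± 4.65, Cd74 15.7 ± 7.46, H2-DMb1 13.2 ± 5.66, Ciita 5.15 ± 2.14 and H2-DMa 3.78 ± 1.38 CPM. H2-Aa was above H2-Eb1 and H2-Eb1 above H2-Ab1 in 6 of 6 mice. H2-Ab1, Cd74 and H2-DMb1 were not ordered, since H2-Ab1 was above Cd74 in 4 of 6 mice and Cd74 above H2-DMb1 in 3 of 6. Ciita was above H2-DMa in 5 of 6 mice. Over reads, the ratio of Cd74 to H2-Aa was 0.309 ± 0.0699 in 3’-LEXO, against a ratio of levels per kb of 8.44 ± 0.740 in Trad-KAPA (n = 6).

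Because both kits started from the same RNA, they were compared within each mouse. Cd74 took a far smaller share of reads in 3’-LEXO than in Trad-KAPA, and H2-DMb1 a far larger one. Cd74 fell from 136 ± 49.3 CPM in Trad-KAPA to 15.7 ± 7.46 in 3’-LEXO (n = 6), which was lower in 6 of 6 mice and 8.72-fold lower in the fit (log2 difference -3.12, SE 0.08, edgeR adjusted p = 1.47e-15). H2-DMb1 took 2.39 ± 1.02 CPM of the Trad-KAPA and 13.2 ± 5.66 CPM of the 3’-LEXO libraries, a 5.55-fold higher share (log2 difference 2.47, SE 0.16, edgeR adjusted p = 2.20e-10). The kits' ranges of CPM did not overlap for either gene.

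The other members differed less between the kits. H2-Ab1 was 1.83-fold lower in 3’-LEXO (log2 difference -0.88, SE 0.09, adjusted p = 5.86e-08), and lower in 6 of 6 mice. H2-Aa was 1.39-fold higher (log2 difference 0.47, SE 0.07, adjusted p = 4.35e-06) and Ciita 1.43-fold higher (0.52, SE 0.14, adjusted p = 0.00283), each in 6 of 6 mice. So the alpha and the beta chain of I-A differed in opposite directions. H2-Eb1 and H2-DMa did not pass the test, with log2 differences of -0.04 (95% interval -0.20 to 0.11, adjusted p = 0.595) and -0.08 (95% interval -0.39 to 0.23, adjusted p = 0.631). In all, 3 members were higher in 3’-LEXO and 2 in Trad-KAPA, beside 83.2% of 13311 genes tested that differed between the kits, 42% higher in 3’-LEXO and 41.2% higher in Trad-KAPA. A difference between kits was therefore the rule for genes in these libraries, and the count of members is near it.

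**Figure D1:**
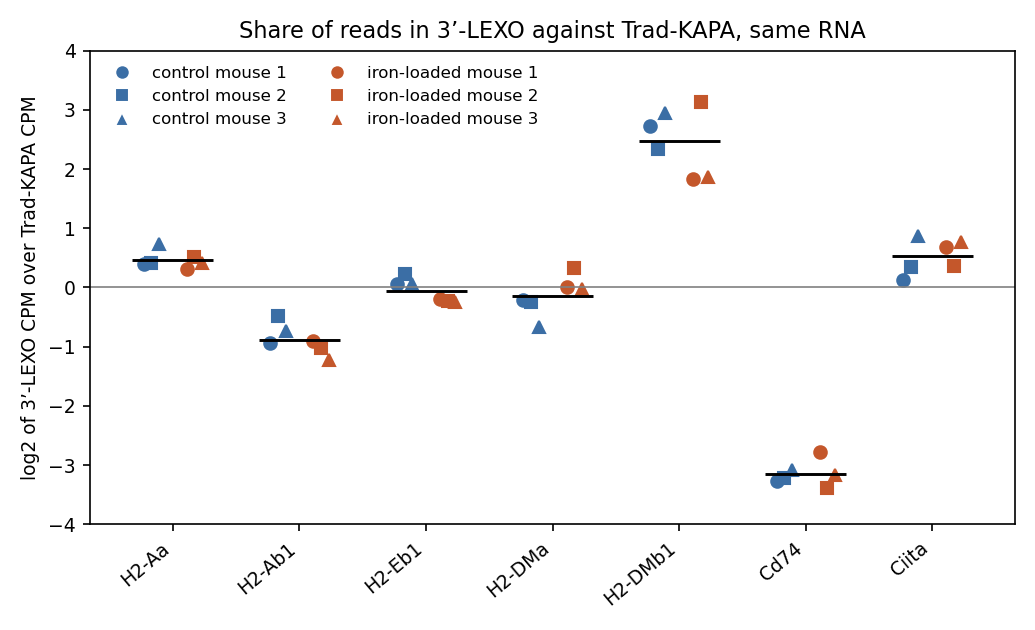
Each point is the log2 of a gene's CPM in 3’-LEXO over its CPM in Trad-KAPA for 1 mouse, and the black line is the mean of the 6 mice. Cd74 sits between -3.38 and -2.78 and H2-DMb1 between 1.82 and 3.12, while H2-Eb1 and H2-DMa lie on both sides of 0.

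Some of these reads can belong to other genes. Exons of H2-DMa share 360 bp (10.4% of its exon length) with Brd2 on the other strand, and Brd2 had 5119 to 9858 counts per 3’-LEXO library against 18 to 58 for H2-DMa. Exons of Ciita share 329 bp (3.45%) with Dexi on the other strand, and those of Cd74 share 12 bp with Mir5107, which had 0 to 5 counts. Whether the counting used strand is not given in the sources used here, so reads of these pairs may not be separated. Of the 50-base stretches of H2-DMb1 transcripts, 22.7% also occur in H2-DMb2, its near copy, so the values of H2-DMb1 are uncertain. For H2-Ab1, H2-Eb1 and Cd74 this share was 0. Reads were aligned to the C57BL/6J reference, whose H2 haplotype is not that of SJL/J, and the part of this in the levels was not tested.

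All 7 members had higher mean shares of reads in the iron-loaded than in the control mice in both kits, and the iron-loaded libraries lay above all control libraries for 4 of 7 members in each kit, where 24.7% of all genes tested in Trad-KAPA and 18.5% of those in 3’-LEXO did so. Fewer passed the test over all genes. In Trad-KAPA 1 of 7 members, Cd74, passed the test (edgeR, Benjamini-Hochberg adjusted over 13151 genes), where 17.1% of all genes tested passed, 8.77% higher and 8.37% lower. That is 1154 genes higher and 1101 lower, or 1339 and 838 when libraries were scaled by their totals only. At an unadjusted p below 0.05 there were 4 members, beside 34.3% of genes. DESeq2 called 3 members (16.8% of genes), edgeR with no filter on low counts 4 (11.7%) and edgeR with the replicate number as a block 2 (14.6%). In 3’-LEXO 0 of 7 members passed, where 6.1% of 13301 genes did, 3.17% higher and 2.92% lower. There 3 members had an unadjusted p below 0.05, beside 25% of genes. DESeq2 called 1 member, Cd74 (9.43% of genes), edgeR with no filter 3 (8.68%) and edgeR with the block 1 (3.28%). The members' median log2 fold change was 0.74 (Trad-KAPA) and 0.62 (3’-LEXO), against 0.016 and 0.013 over all genes tested. How the members called compare with all genes thus depended on the test and filter, and with 7 members each counts for much of the share.

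Cd74 had the lowest adjusted p of the members in each kit. In Trad-KAPA its 3 control libraries had 135, 96.0 and 63.7 CPM and its 3 iron-loaded libraries 198, 162 and 163 CPM. In 3’-LEXO the control libraries had 13.9, 10.3 and 7.52 CPM and the iron-loaded libraries 28.8, 15.5 and 18.2 CPM. All iron-loaded libraries were above all control libraries of the same kit. The fold was 1.70 in Trad-KAPA (log2 0.77, SE 0.22, adjusted p = 0.0465) and 1.89 in 3’-LEXO (log2 0.92, SE 0.26, adjusted p = 0.0660). The call in Trad-KAPA was lost when any of 5 of the 6 mice was left out, with a highest adjusted p of 0.132 without control mouse 2, and was kept only without control mouse 1 (adjusted p = 0.0240). Without control mouse 3 the log2 fold change was 0.55 with an adjusted p of 0.0903.

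The I-A chain genes and H2-Eb1 had similar diet differences in Trad-KAPA. H2-Aa had 39.3, 28.9 and 15.0 CPM in the control and 52.2, 42.7 and 42.8 CPM in the iron-loaded Trad-KAPA libraries. H2-Ab1 had 32.4, 20.2 and 12.6 CPM against 40.5, 34.6 and 39.5 CPM. H2-Eb1 had 42.8, 30.5 and 16.3 CPM against 58.0, 49.6 and 48.7 CPM. For each of the 3 genes the diets did not overlap, and the control mice spread over a wider range than the iron-loaded mice. The log2 fold changes were 0.66 (SE 0.27, adjusted p = 0.121) for H2-Aa, 0.75 (SE 0.26, adjusted p = 0.0838) for H2-Ab1 and 0.74 (SE 0.27, adjusted p = 0.0896) for H2-Eb1, and did not pass the test.

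In 3’-LEXO H2-Aa had 51.6, 38.4 and 24.9 CPM in the control and 65.0, 61.1 and 57.3 CPM in the iron-loaded libraries. H2-Ab1 had 16.9, 14.5 and 7.59 against 21.7, 17.0 and 17.0 CPM. H2-Eb1 had 44.7, 35.6 and 16.9 against 50.7, 42.5 and 41.1 CPM. The diets were apart for H2-Aa, by a small gap for H2-Ab1, and overlapped for H2-Eb1, where control mouse 1 exceeded iron-loaded mice 2 and 3. Their log2 fold changes were 0.62 (SE 0.22, adjusted p = 0.115), 0.47 (SE 0.25, adjusted p = 0.273) and 0.42 (SE 0.27, adjusted p = 0.374).

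The H2-DM genes had few reads in Trad-KAPA, and H2-DMa in 3’-LEXO too, while H2-DMb1 varied widely between mice of 1 diet in 3’-LEXO. H2-DMa had 70, 61 and 28 counts in the control and 62, 60 and 67 in the iron-loaded Trad-KAPA libraries, and 51, 48 and 18 against 58, 55 and 52 counts in 3’-LEXO. H2-DMb1 had 44, 21 and 15 against 40, 36 and 54 counts in Trad-KAPA, and 246, 100 and 118 against 133, 232 and 156 in 3’-LEXO. In CPM the diets were apart only for H2-DMa in 3’-LEXO. The log2 fold changes of H2-DMa were 0.30 (95% interval -0.30 to 0.90) in Trad-KAPA and 0.73 (-0.03 to 1.48) in 3’-LEXO, and those of H2-DMb1 were 0.75 (-0.04 to 1.54) and 0.42 (-0.40 to 1.24). None of these intervals excludes 0, and counting error was not separated from the spread between mice.

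Ciita, the coactivator of the others, was counted by 21 to 86 reads per library. It had 82, 31 and 21 counts in the control and 45, 81 and 64 in the iron-loaded Trad-KAPA libraries, and 76, 37 and 39 against 67, 76 and 86 counts in 3’-LEXO. The diets overlapped in both kits, because control mouse 1 exceeded iron-loaded mouse 1 in each. The log2 fold change was 0.57 (SE 0.41, adjusted p = 0.362) in Trad-KAPA and 0.83 (SE 0.31, adjusted p = 0.140) in 3’-LEXO. The Trad-KAPA value rested on single control mice, being 1.23 without control mouse 1 (adjusted p = 0.0671) and 0.30 without control mouse 3 (adjusted p = 0.666).

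**Figure D2:**
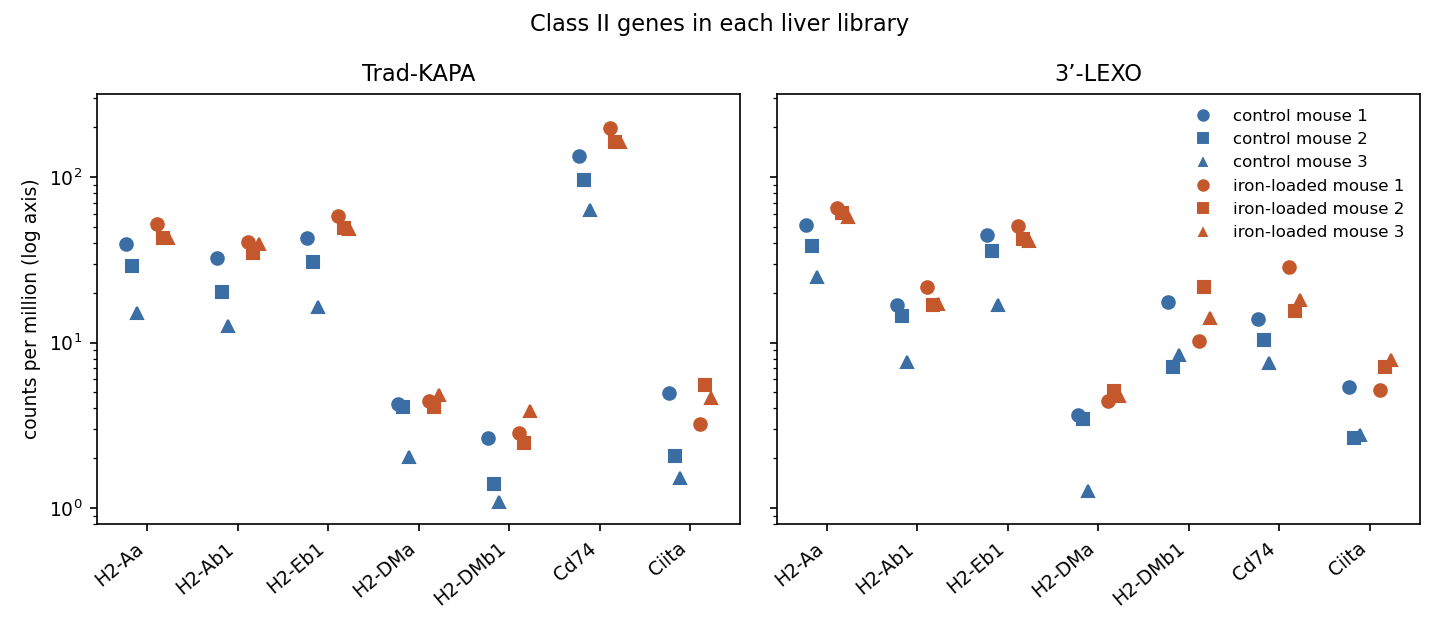
CPM on a log axis are plotted for each class II gene in each library, with Trad-KAPA on the left and 3’-LEXO on the right, and each point is 1 mouse. Control mouse 3, the blue triangle, is the lowest point for 7 of 7 genes in Trad-KAPA and for 5 of 7 in 3’-LEXO.

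**Figure D3:**
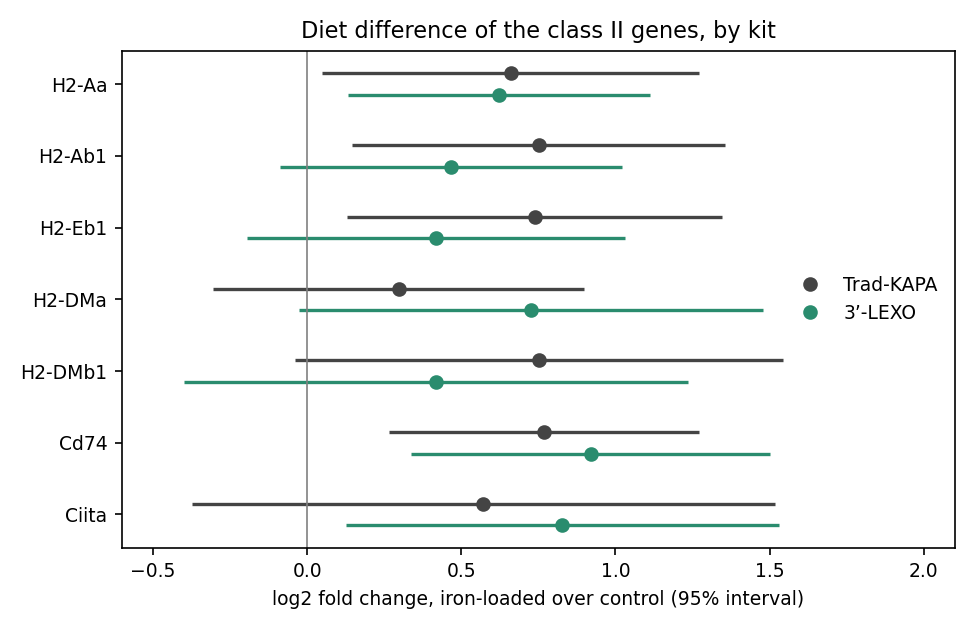
Points are log2 fold changes of iron-loaded over control from edgeR and bars are their 95% intervals, by kit. All 14 points lie above 0, from 0.30 to 0.92, and 7 of the bars cross 0.

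The diet differences were set against each other between the kits, since a call in 1 kit and not in the other does not show that they differ. No member passed the test of that difference, and neither did any of 14384 genes in edgeR (0%), of which 402 had an unadjusted p below 0.05, nor any in DESeq2. The differences in log2 fold change, 3’-LEXO minus Trad-KAPA, ran from -0.33 for H2-DMb1 to 0.43 for H2-DMa. Their 95% intervals were wide, for example -0.86 to 0.78 for H2-Aa and -0.65 to 0.95 for Cd74, in this fit, which leaves out that each mouse gave a library to both kits. With the mouse as a block the intervals narrowed to -0.35 to 0.22 for H2-Aa and -0.22 to 0.45 for Cd74, 1026 genes had an unadjusted p below 0.05, and 5 genes passed the test, none of them members. The interval that excluded 0 was that of H2-Eb1, -0.59 to -0.06 (adjusted p = 0.596).

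Control mouse 3 set much of the spread. Its CPM was 0.432 to 0.552 of the mean of control mice 1 and 2 in Trad-KAPA (median 0.479 over the 7 members) and 0.361 to 0.685 in 3’-LEXO (median 0.553). It was the lowest of the 6 libraries for 7 of 7 members in Trad-KAPA and for 5 of 7 in 3’-LEXO, control mouse 2 being the lowest for H2-DMb1 and Ciita there. The mean of the members' centred log2 CPM was 0.24, -0.37 and -1.08 in the control and 0.42, 0.34 and 0.45 in the iron-loaded Trad-KAPA libraries. In 3’-LEXO it was 0.19, -0.36 and -0.95 against 0.38, 0.40 and 0.33. Both kits thus ordered the control mice alike, and the iron-loaded mice lay close together. Without control mouse 3 the members' median log2 fold change was 0.46 (Trad-KAPA) and 0.39 (3’-LEXO), all 7 were still above 0 in both kits, and 0 of 7 passed the test in either.

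Markers of the cells that carry class II were summed in the same libraries. The summed CPM of the 7 members was 112 to 261 in the control and 301 to 360 in the iron-loaded Trad-KAPA libraries, and 69.3 to 154 against 160 to 186 in 3’-LEXO. Of 7 pan-leukocyte markers, which include Ptprc, the CD45 antigen, 1 was called higher in Trad-KAPA and 0 in 3’-LEXO. Among all genes tested, 8.77% and 3.17% were. The sum of these 7 markers was higher too, from 61.2 to 96.0 CPM in the control and from 120 to 122 CPM in the iron-loaded Trad-KAPA libraries. In 3’-LEXO the pan-leukocyte sum was 69.1 to 99.9 against 107 to 136 CPM. Control mouse 3 was lowest in this sum as well, at 0.676 (Trad-KAPA) and 0.694 (3’-LEXO) of the mean of control mice 1 and 2. Divided by the pan-leukocyte sum of the same library, the member sum was 2.72, 2.15 and 1.83 in the control and 2.95, 2.51 and 2.57 in the iron-loaded Trad-KAPA libraries, and the diets overlapped. In 3’-LEXO this ratio was 1.54, 1.13 and 1.00 against 1.37, 1.59 and 1.42, with overlap too. The part of leukocyte number in the class II values was not tested.

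Macrophage markers rose in part. Among all genes tested, 8.77% passed as higher and 8.37% as lower with Trad-KAPA, against 3.17% and 2.92% with 3’-LEXO. Neither these markers nor the lists below were tested against those shares. Of 12 Kupffer cell markers tested, 3 were called higher in Trad-KAPA and 2 in 3’-LEXO, none lower, with Marco, a scavenger receptor, at log2 3.10 (SE 0.29, adjusted p = 0.00143) in Trad-KAPA, while Clec4f, a defining Kupffer cell gene, had 0.13 (SE 0.15, adjusted p = 0.587). Of the monocyte and recruited macrophage markers, 4 of 10 were called higher in Trad-KAPA and 3 of 11 in 3’-LEXO, led by Gpnmb at log2 4.49 (SE 0.62, adjusted p = 0.00499) and Trem2 at 4.18 (SE 0.65, adjusted p = 0.00707) in Trad-KAPA, both genes of lipid-handling macrophages. The summed Kupffer cell markers were 469 to 734 CPM in the control and 817 to 943 CPM in the iron-loaded Trad-KAPA libraries, and 1134 to 1523 against 1496 to 1771 CPM in 3’-LEXO, where the diets overlapped. The member sum over this Kupffer cell sum was 0.356, 0.285 and 0.239 in the control and 0.381, 0.369 and 0.370 in the iron-loaded Trad-KAPA libraries, which did not overlap. In 3’-LEXO it was 0.101, 0.0916 and 0.0612 against 0.105, 0.114 and 0.105, again without overlap. Over the monocyte and recruited macrophage sum the ratio was 1.27, 1.05 and 0.832 against 1.27, 1.19 and 1.16 in Trad-KAPA and 0.601, 0.461 and 0.373 against 0.508, 0.530 and 0.511 in 3’-LEXO, where the highest control lay within or above the iron-loaded values. The part of macrophage number in the class II values was not tested. Without control mouse 3, 2 Kupffer cell markers and 4 monocyte and macrophage markers were called higher in Trad-KAPA, and 1 of each in 3’-LEXO.

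Markers of other class II bearing cells did not all go the same way. The summed dendritic cell markers were 16.4 to 17.8 CPM in the control and 20.3 to 23.2 CPM in the iron-loaded Trad-KAPA libraries. In 3’-LEXO they were 24.7 to 30.2 against 23.9 to 30.9 CPM, where the diets overlapped. Their log2 differences were above 0 for 6 of 7 tested in Trad-KAPA and 4 of 5 in 3’-LEXO. Of the dendritic cell markers, 1 of 7 tested in Trad-KAPA and 0 of 5 in 3’-LEXO were called higher. The called gene was Itgax, the CD11c integrin that macrophages also make, at 1.23 ± 0.515 CPM in the control and 4.62 ± 1.46 CPM in the iron-loaded Trad-KAPA libraries (n = 3 each, log2 1.82, SE 0.33, adjusted p = 0.0117), and at log2 1.43 (SE 0.39, adjusted p = 0.0610) in 3’-LEXO. B cell markers were lower in sum, from 34.7 to 67.5 CPM in the control and from 26.5 to 27.6 CPM in the iron-loaded Trad-KAPA libraries, and 23.0 to 37.6 against 13.5 to 17.1 CPM in 3’-LEXO. Of these, 1 of 9 tested in Trad-KAPA and 1 of 6 in 3’-LEXO was called lower, in each kit Ighm, the IgM heavy chain, which fell by 1.64 (SE 0.19, adjusted p = 0.00294) and 1.69 (SE 0.17, adjusted p = 0.00136) on the log2 scale. The log2 differences were below 0 for 8 of 9 markers tested in Trad-KAPA (median -0.42) but for only 3 of 6 in 3’-LEXO (median -0.08). With all mice, the lower sum in 3’-LEXO was therefore not shared by all B cell markers. Without control mouse 3 the log2 differences were below 0 for 9 of 9 markers tested in Trad-KAPA (median -0.52). They were then below 0 for 6 of 6 in 3’-LEXO (median -0.39). Between the diets the B cell and class II sums differed in opposite directions, while within the control mice both sums were highest in mouse 1 and lowest in mouse 3 in each kit. The part of B cells in the class II values was not tested. None of 6 T cell markers tested in each kit was called.

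**Figure D4:**
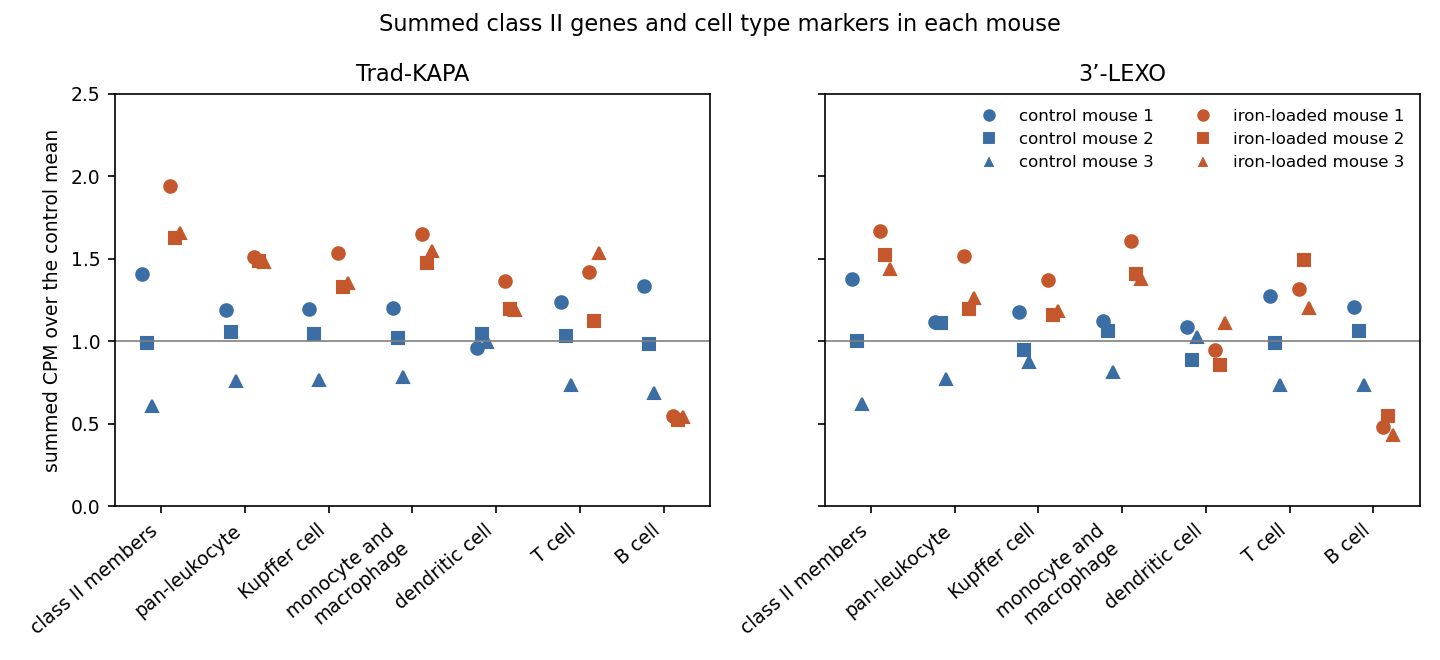
The summed CPM of each gene list is plotted for each mouse, divided by the mean of the 3 control mice of that kit (grey line at 1). The sums of the class II members, the pan-leukocyte and the monocyte and macrophage markers are higher in all iron-loaded than in all control mice, and the B cell sum is lower, while the Kupffer cell sums of the diets overlap in 3’-LEXO. Control mouse 3 is lowest in the first 4 sums.

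Sinusoidal endothelial markers, of cells that can carry class II, differed in sum between the diets in opposite directions in the 2 kits. The difference of the diet effect, 3’-LEXO minus Trad-KAPA, was below 0 for 9 of 9 of these markers, but 0 passed the test. Their sum was 471 to 609 CPM in the control and 626 to 758 CPM in the iron-loaded Trad-KAPA libraries. In 3’-LEXO it was 480 to 573 against 421 to 472 CPM, so on the same RNA this sum went the opposite way. Of 9 such markers, 3 were called higher in Trad-KAPA and 1 higher and 2 lower in 3’-LEXO. Lyve1, a hyaluronan receptor, was higher in both at log2 1.77 (SE 0.22, adjusted p = 0.00374) and 1.16 (SE 0.28, adjusted p = 0.0435). Without control mouse 3, 2 of the 9 markers were called higher in Trad-KAPA, and 0 were called in either direction in 3’-LEXO. Of 3 bile duct markers tested, 1 was called higher in each kit, Spp1, which is also in the macrophage list. Of 9 hepatocyte markers, 2 were called lower in Trad-KAPA (Hpd and Apoa2) and 1 in 3’-LEXO (Hpd, an enzyme of tyrosine breakdown). The hepatocyte markers summed to 124362 to 167537 CPM in Trad-KAPA, far above any other list, so the tissue label held.

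The other class II chains stayed low. H2-DMb2, a second beta chain of H2-DM, had 21 to 65 counts per Trad-KAPA and 27 to 64 per 3’-LEXO library, with log2 diet differences of 0.17 (SE 0.35, adjusted p = 0.757) and -0.13 (SE 0.27, adjusted p = 0.801). H2-Ob, which with H2-Oa forms the H2-DM inhibitor made mainly by B cells, had 16 to 35 and 22 to 55 counts, with log2 diet differences of -0.20 (SE 0.29, adjusted p = 0.660) and -0.21 (SE 0.34, adjusted p = 0.750). H2-Oa had 1 to 14 and H2-Eb2 at most 7 counts per library, too few to be tested. H2-Ea-ps, the I-E alpha gene, which is not made in some mouse strains, had 3 counts in control mouse 1 in Trad-KAPA and 0 in the other 11 libraries. H2-Eb1 was thus counted with almost no RNA of its partner chain, and its reads do not show I-E at the cell surface.

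Of 11 factors that act on class II promoters or on Ciita, 0 were called higher and 2 lower in Trad-KAPA. In 3’-LEXO 0 were called in either direction. With Trad-KAPA 8.37% of all genes passed as lower, and whether the factors differed from that share was not tested. Spi1 and Irf8, factors of myeloid cells, had log2 differences of 0.53 (95% interval 0.15 to 0.91, adjusted p = 0.0585) and 0.43 (0.07 to 0.78, adjusted p = 0.0896) in Trad-KAPA. Rfxank, an RFX subunit, had 9.94 ± 0.221 CPM in the control and 5.88 ± 1.78 CPM in the iron-loaded Trad-KAPA libraries (n = 3 each) and fell by 0.82 on the log2 scale (SE 0.22, adjusted p = 0.0396). Nfya, an NF-Y subunit, had 13.4 ± 0.754 and 8.16 ± 0.409 CPM and fell by 0.78 on the log2 scale (SE 0.12, adjusted p = 0.00772). In 3’-LEXO their log2 differences were -0.79 (SE 0.30, adjusted p = 0.140) and -0.29 (SE 0.29, adjusted p = 0.563). Of the other RFX and NF-Y subunits, Rfx5 and Nfyb had -0.36 and -0.42 and Rfxap and Nfyc 0.04 and 0.05 in Trad-KAPA, and none passed the test. When 1 mouse was left out, 0 to 1 factors were called higher and 1 to 2 lower in Trad-KAPA.

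Genes for the proteins that cut antigen and Cd74 or remove class II from the surface numbered 9. Of these, 2 were called higher in Trad-KAPA, where 8.77% of all genes were, and 0 in 3’-LEXO, where 3.17% were. Ctss, the cathepsin that trims Cd74, had 35.0 ± 6.60 CPM in the control and 57.0 ± 4.49 CPM in the iron-loaded Trad-KAPA libraries (n = 3 each, log2 0.64, SE 0.13, adjusted p = 0.0164). Lgmn, the endopeptidase legumain, had 67.6 ± 13.8 and 103 ± 0.376 CPM (log2 0.54, SE 0.14, adjusted p = 0.0312). Both calls were lost without control mouse 3. None of 4 co-stimulatory genes tested in Trad-KAPA and of 3 in 3’-LEXO was called, and none of 13 genes of the class I pathway in either kit. The median log2 difference of the class I genes was -0.19 (Trad-KAPA) and -0.15 (3’-LEXO), opposite in sign to that of the class II members.

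The genes whose pattern over mice was most like the members' mean were sought among 9306 genes with at least 50 counts on average in both kits, by the lower of the Pearson correlations over the 6 libraries of each kit. The 10 nearest were Hp, Lpin1, Cxcl1, Abcc3, Pnpla2, Elmo1, Hpx, Fmo2, Ccl24 and Sf3b1, with a lower correlation of 0.985 for Hp, the plasma haptoglobin gene, down to 0.944 for Sf3b1. The correlations rest on the same 6 mice in both kits and are given as a description. Because the members' mean was higher in all iron-loaded mice, a diet test of these 10 genes would follow from how they were chosen, and none is given.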

How the data were processed

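Liver RNA of 6 mice was measured in 12 libraries, sequenced as single-end reads of 50 bp. The authors aligned reads with STAR 2.5.3a to mm10 (GRCm38) and deposited raw counts per gene. The counting program, its strand setting and the annotation release are not given in the sources used here. Groups were taken from the sample titles. Counts were tested in R 4.3.3 with edgeR 4.0.16 (filterByExpr, TMM, quasi-likelihood test, Benjamini-Hochberg adjusted p below 0.05 over all genes tested): diet within each kit, the diet by kit term over 12 libraries, and kit with the mouse as a block. The same RNA was used in both kits. DESeq2 1.42.0, other scalings and filters, 10000000 counts drawn per library and leaving out each mouse were alternatives. The tests were also run on simulated counts, in which each library was drawn independently. That check does not cover libraries paired by mouse or the spread between mice seen here. CPM are counts divided by the library total and multiplied by 1e6. Lengths and positions are those of the GENCODE M21 annotation, in which 26940 of 27022 identifiers were found.

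The members and gene lists were chosen with earlier results of these data known. H2-Ea, Tf and the Marchf1 and Marchf8 spellings had no row. All members are named. Of each other list, called genes are named or counted, with values for at most 4, and all class II chains are given. Genes named outside this rule (Clec4f, Spi1, Irf8, Rfx5, Nfyb, Rfxap and Nfyc) were chosen after their values were seen. The centred log2 CPM used a pseudocount of 0.5 counts. Intervals of the diet differences within a kit cover the spread between mice. Those of the kit difference, and of the diet by kit term with the mouse as a block, cover the spread left within mice. The diet by kit term without the block treats the libraries as independent, though each mouse gave a library to both kits.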

Additional observations from a re-analysis of the deposited data

How the results depend on the processing

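Each of the 7 members had a positive diet log2 fold change in both kits under every alternative that gave a value. The count called higher in Trad-KAPA was 1, and was 4 with no filter, 3 with DESeq2, 2 with the replicate block, and 0 to 3 when 1 mouse was left out. In 3’-LEXO it was 0, and was 3 with no filter, 1 with DESeq2, 1 with the replicate block (Cd74, adjusted p = 0.0453), and 0 to 1 when 1 mouse was left out. Which step of these settings moved the counts was not tested. Replicate numbers shared by the diets did not pair the mice: deviations of same-numbered mice correlated at 0.0132, 0.0738 and -0.0275 in Trad-KAPA and at -0.153, -0.0674 and 0.0733 in 3’-LEXO over 10326 genes. Cd74 in Trad-KAPA had log2 fold changes of 0.55 to 1.05 over all alternatives (adjusted p 0.00239 to 0.132). The difference of the diet effect between kits changed sign for H2-Aa without control mouse 3 (0.025) and without iron-loaded mouse 1 (0.043), and for Cd74 without iron-loaded mouse 1 (-0.027), within ranges of -0.075 to 0.043 and -0.027 to 0.29 when 1 mouse was left out, with 0 members called. The kit difference kept 3 members higher in 3’-LEXO and 2 in Trad-KAPA whichever mouse was left out, and without the mouse as a block Ciita was no longer called (adjusted p = 0.125). With the longest transcript the Trad-KAPA levels of H2-Ab1, H2-DMa and Ciita were 24.7, 1.97 and 0.607 CPM per kb. H2-DMa, H2-DMb1 and Ciita had only 15 to 82 counts per Trad-KAPA library. Over all genes, the 2255 diet calls in Trad-KAPA became 841 to 2803 when 1 mouse was left out, 2866 with no filter, 2431 with DESeq2 and 1922 with the replicate block, and the 811 in 3’-LEXO became 199 to 871, 2040 with no filter, 1313 with DESeq2 and 436 with the replicate block. The difference of the diet effect between kits gave 0 genes, 7 with no filter and 5 with the mouse as a replicate block, none of them members.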
